A study of Mus musculus with 4 samples.

Results

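The TRAV9 family is a group of V segments of the T-cell receptor alpha chain. Its members were taken as all TRA contigs whose V segment name starts with TRAV9-, TRAV9D- or TRAV9N- (with no DV in the name) in barcodes that the authors' files flag as cells, and whose contigs are flagged high-confidence, full-length and productive. This gave 1146 of 13497 productive TRA chains, under 6 names. TRAV9-1 was given to 615 chains, TRAV9N-3 to 184, TRAV9N-4 to 167, TRAV9-4 to 100, TRAV9-2 to 42 and TRAV9D-1 to 38. Among the 11035 cells with a productive alpha chain and exactly 1 productive beta chain (paired cells, each counted with its TRA of most UMIs, unique molecular identifiers), 894 carried a TRAV9 chain, and they formed 574 of 7179 clonotypes. A clonotype is a set of cells of a library whose alpha and beta chains match in V, in J and in every CDR3 base.

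An alpha chain is made in the thymus by joining 1 of many TRAV segments to 1 of many TRAJ segments, and the join forms CDR3, the loop that mostly contacts the peptide. CDR1 and CDR2 are written in the V segment itself and mostly contact the MHC molecule. The mouse Tra locus holds duplicated blocks of TRAV segments, whose copies carry a D or an N in their names, and a cell can rearrange the same allele again, replacing the first join by one between a more upstream V and a more downstream J.

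The libraries came from pancreatic islets of NOD mice, a non-obese diabetic strain that develops autoimmune diabetes, and of Tet2KO NOD mice, which lack Tet2, one of the TET enzymes that convert 5-methylcytosine to 5-hydroxymethylcytosine. Each genotype had 2 libraries with the set numbers 1 and 2, and values given for all 4 libraries without naming them run in the order NOD 1, NOD 2, Tet2KO NOD 1, Tet2KO NOD 2. Each library pooled the islets of 4 to 6 mice, so values cannot be split by mouse. Per the labels, the Tet2−/− line came from the B6 background and was backcrossed to NOD females for over 14 generations. The design text gives an age of 10 to 13 weeks, while the labels' protocol counts these weeks after an event abbreviated BTM and names NOD females as bone marrow transplant donors, so age and transplant status were not settled. Loss of Tet2 was not checked here, since these libraries hold receptor transcripts. The files held 6835, 2889, 1957 and 1664 called cells, with 85137263 to 220516119 reads in contigs per library. Of 13263 distinct barcodes of called cells with chains, 81 occurred in over 1 library, and no pair of libraries shared a barcode that carried a TRAV9 chain in both. With 2 libraries per genotype, an exact permutation test between genotypes cannot give a p below 0.333, and one over the 4 within-library differences cannot go below 0.125. These p-values measure the spread between pools.

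The 6 names covered 8 V-region sequences. Over the 270 bases that run from framework 1 to the codon before the cysteine that opens CDR3, 1143 of the 1146 chains carried 1 of 8 main forms (each in at least 10 chains), and all 8 were found in every library. The remaining 3 chains each had a form of their own. TRAV9-1 and TRAV9-4 each held 2 main forms. The 2 forms of TRAV9-1 are shown because a single base separates them, in capitals (G228T, form A first, counted from 1 at the 5′ end of the stretch).
TRAV9-1 form A: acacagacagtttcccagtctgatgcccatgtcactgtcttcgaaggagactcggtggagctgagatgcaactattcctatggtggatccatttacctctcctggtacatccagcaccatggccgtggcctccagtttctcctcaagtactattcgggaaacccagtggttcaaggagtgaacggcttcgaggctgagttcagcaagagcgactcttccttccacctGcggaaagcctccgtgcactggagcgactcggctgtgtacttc
TRAV9-1 form B: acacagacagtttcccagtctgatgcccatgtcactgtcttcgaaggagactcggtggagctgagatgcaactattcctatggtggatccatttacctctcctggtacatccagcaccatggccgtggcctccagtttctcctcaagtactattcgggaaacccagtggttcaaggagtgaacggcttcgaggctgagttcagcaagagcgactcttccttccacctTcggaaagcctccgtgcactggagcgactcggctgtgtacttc
Form A was carried by 455 chains and form B by 160. TRAV9D-1 differed from form A by G190A, and the 2 forms of TRAV9-4 (66 and 34 chains) differed from each other by G43C, G90A, T183C and T227C. TRAV9-1 and TRAV9D-1 were 81.5% to 83.3% identical to the other forms, which were at least 95.6% identical to each other. Of the forms named otherwise in some chains, the TRAV9-2 form appeared as TRAV9N-4 in 2 chains and TRAV9-4 form B as TRAV9N-4 in 1.

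None of the 8 forms was found on the primary chromosome 14 of GRCm38, the build named in the submitters' processing notes. The annotation lists 11 Trav9 genes there between positions 52792316 and 53676630 on the plus strand, and each form differed from the nearest of them by 2 to 7 bases. A set of 5 forms, carried by 878 chains (76.6%), matched GRCm38.p6 exactly at a single place each, on the plus strand of the alternate scaffold of chromosome 14 from the strain 129S1/SvImJ. In the order of the scaffold these were TRAV9-1 form B at 441385 to 441654 (within LOC115486440, outside its annotated exons), TRAV9-4 form B at 546065 to 546334 (no gene annotated), TRAV9N-4 at 574593 to 574862 (within LOC115489333, outside its annotated exons), TRAV9-4 form A at 638228 to 638497 (no gene annotated) and TRAV9-1 form A at 857917 to 858186 (in an exon of the gene annotated Trav9d-1). The name TRAV9-1 thus joined sequences from places that lie apart on that scaffold, and the scaffold's Trav9d-1 carried the sequence of a chain named TRAV9-1. On that scaffold TRAV9D-1 differed from its best place by 1 base, TRAV9-2 by 4 and TRAV9N-3 by 6. Names are therefore used below as the authors' files give them, and forms where the sequence separates them.

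The forms also differed in the V-encoded ends of CDR3. On the scaffold, form A of TRAV9-1 continues with 13 bases before the recombination heptamer CACAGTG, and form B likewise, while TRAV9-4 form A has another ending. They are shown because they set the first residues of CDR3, in lower case throughout.
TRAV9-1 form A, TRAV9-4 form B and TRAV9N-4: tgtgctgtgagcg
TRAV9-1 form B: tgtgctgcgagca
TRAV9-4 form A: tgtgctctgagcg
The CDR3 loops followed these ends. Of 209 clonotypes with form A, 195 (93.3%) began with CAV, and all 72 clonotypes with form B began with CAA. CAL opened 40 of 42 clonotypes of TRAV9-4 form A. CAA also opened all 29 clonotypes of the TRAV9-2 form, and CAV all 28 of TRAV9D-1, 91 of 96 of TRAV9N-3 and 81 of 83 of TRAV9N-4. In the 5 forms whose germline ends are shown above, distinct chains kept a median of 12 or 13 of the 13 germline bases, with a range from 4 to 13. CDR1 was YGGSIY in TRAV9-1 and TRAV9D-1, YSATPY in TRAV9-2 and TRAV9N-4, YSGTPY in TRAV9-4 and YFGTPY in TRAV9N-3.

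By clonotypes TRAV9-1 was the most frequent and TRAV9N-3 the second most frequent name in every library. The margin of TRAV9N-3 was 47 to 46 over TRAV9N-4 in NOD 1, where TRAV9N-4 had more cells (64 against 55). It was 21 to 19 over TRAV9-4 in NOD 2, and 14 to 13 and 15 to 8 over TRAV9N-4 in Tet2KO NOD 1 and Tet2KO NOD 2. The share of the family did not differ between genotypes beyond the spread of the libraries. The family made up 7.74% of clonotypes in NOD 1 (278 of 3594, Wilson 95% interval 6.91% to 8.65%), 8.45% in NOD 2 (143 of 1693, 7.21% to 9.87%), 7.45% in Tet2KO NOD 1 (67 of 899, 5.91% to 9.36%) and 8.66% in Tet2KO NOD 2 (86 of 993, 7.07% to 10.6%). These intervals cover counting error only. The highest and the lowest value were both from Tet2KO NOD libraries, so the genotypes overlapped. The mean was 8.09% ± 0.503 (SD, n = 2) in NOD and 8.06% ± 0.854 (SD, n = 2) in Tet2KO NOD (exact permutation test, two-sided, p = 1). By mean share over the libraries the family was the fourth of the 8 TRAV families compared, after TRAV6 (14.99%), TRAV7 (12.1%) and TRAV5 (11.6%) and before TRAV14 (6.91%), TRAV13 (6.85%), TRAV16 (5.65%) and TRAV12 (5.63%). Names with DV were left out of all 8 families, among them TRAV13-4-DV7 (2.00%, 1.24%, 1.67% and 1.61% of clonotypes). With it TRAV13 would stand above TRAV9, so this order holds only without such names. Of paired cells the family held 7.40%, 9.33%, 9.16% and 7.47%, and the genotypes overlapped here too (8.37% ± 1.36 and 8.32% ± 1.20, SD, n = 2 each, exact permutation p = 1). The difference was 1.76 percentage points within set 1 and -1.86 within set 2.

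TRAV9-1 was the largest member in every library, with 3.90%, 3.84%, 3.00% and 4.93% of clonotypes (140, 65, 27 and 49 clonotypes). Its lowest and highest shares were both in Tet2KO NOD libraries. Form B made up 26.4%, 18.5%, 33.3% and 28.6% of these clonotypes. TRAV9N-3 reached 1.31%, 1.24%, 1.56% and 1.51% (47, 21, 14 and 15 clonotypes), with both Tet2KO NOD libraries above both NOD libraries. TRAV9N-4 lay at 1.28%, 1.00%, 1.45% and 0.806% (46, 17, 13 and 8), with overlap. TRAV9-4 lay at 0.723%, 1.12%, 0.667% and 0.504% (26, 19, 6 and 5), with both Tet2KO NOD values lower. TRAV9D-1 lay at 0.334%, 0.591%, 0.334% and 0.302% (12, 10, 3 and 3), where the nearest values of the genotypes round to the same number. TRAV9-2 lay at 0.195%, 0.650%, 0.445% and 0.604% (7, 11, 4 and 6), with overlap.

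**Figure D1:**
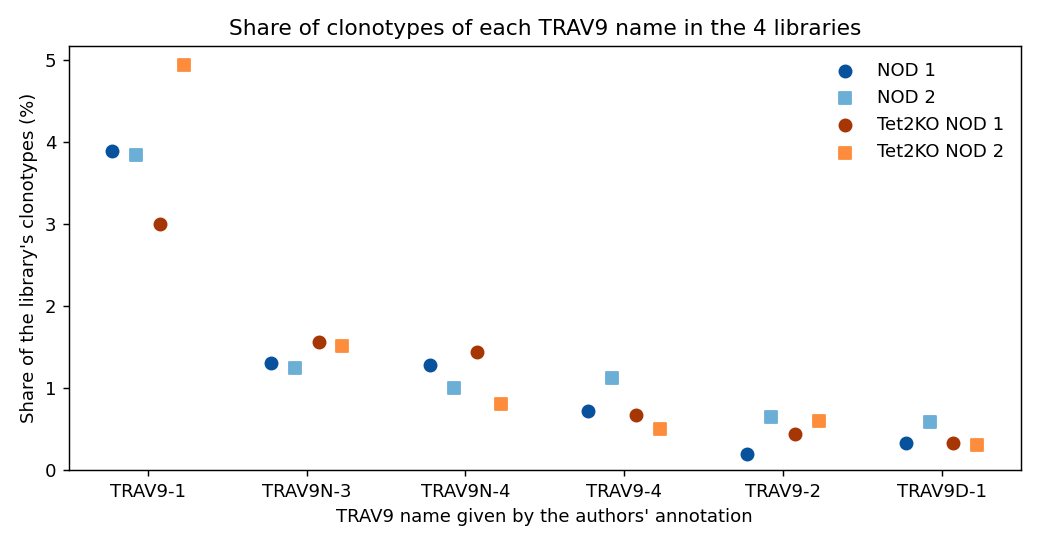
Share of each library's clonotypes (%, y axis) that carried each TRAV9 name (x axis), 1 point per library, NOD in blue and Tet2KO NOD in orange, with set 1 as circles and set 2 as squares. TRAV9-1 spans 3.00% to 4.93% and lies above all other names in every library, while the other 5 names stay at or below 1.56%.

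No TRAV9 name passed the test between genotypes. In edgeR's quasi-likelihood test on clonotype counts per V and J segment, with Benjamini-Hochberg adjustment over 124 segments, 1 segment was called (0.806%), the beta segment TRBV2 (edgeR adjusted p = 0.0363), and the 5 TRAV9 names tested all had an adjusted p of 0.992. The TRBV2 call was lost with a replicate block by set number (lowest adjusted p = 0.0520), with DESeq2 (0.991), with no filter (0.0771), with each cell counted once (0.599) and when any library other than NOD 2 was left out. The log2 fold change (Tet2KO NOD over NOD) was 0.05 ± 0.20 (SE) for TRAV9-1, 0.25 ± 0.39 for TRAV9N-3, -0.09 ± 0.43 for TRAV9N-4, -0.56 ± 0.52 for TRAV9-4 and -0.39 ± 0.61 for TRAV9D-1. TRAV9-2 fell under the filter of at least 10 clonotypes in at least 2 libraries. The genotypes did not overlap for TRAV9N-3, TRAV9-4 and TRAV9D-1, and over all segments 25.8% showed no overlap.

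TRAV9 chains joined all 43 TRAJ segments seen in the data, but with fewer from the upstream end of the J cluster than other TRAV chains. TRAJ segments are numbered from 58 at the end nearest the V segments downwards, and 3 ranges of numbers were compared. TRAJ58 to TRAJ40 were used by 32.7%, 35.0%, 31.3% and 34.9% of TRAV9 clonotypes, against 42.1%, 43.2%, 41.8% and 42.8% of clonotypes of other TRAV. All 4 TRAV9 values lay below all 4 others, by 8.99 ± 1.17 percentage points on average (SD, n = 4 libraries, exact sign-flip permutation p = 0.125, adjusted 0.250 over 8 such comparisons). TRAJ20 to TRAJ2 were used by 24.5%, 23.8%, 19.4% and 33.7% of TRAV9 clonotypes against 19.5%, 19.2%, 18.1% and 16.2% of others, higher in 4 of 4 libraries (7.06 ± 7.16 percentage points, exact permutation p = 0.125, adjusted 0.250). The difference is 3.57 without Tet2KO NOD 2, where it was 17.5. The comparisons of both ranges were added after the values had been seen.

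The shift towards low TRAJ numbers was not shared by all forms. The TRAJ58 to TRAJ40 range held 50.0% of 28 TRAV9D-1 clonotypes, 45.8% of 72 with TRAV9-1 form B and 39.7% of 209 with form A, near the 42.4% of other TRAV, but 29.2% of 96 with TRAV9N-3, 22.9% of 83 with TRAV9N-4, 14.3% of 42 with TRAV9-4 form A and 10.3% of 29 with TRAV9-2. TRAV9-4 form B had 46.2% of 13 in this range. In TRAJ20 to TRAJ2 it had 38.5%, near the 42.9% of TRAV9-4 form A and the 41.4% of TRAV9-2, against 18.8% of other TRAV. In order along the 129S1/SvImJ scaffold, the 5 mapped forms had median TRAJ numbers of 36.5 (TRAV9-1 form B), 34 (TRAV9-4 form B), 26 (TRAV9N-4), 22 (TRAV9-4 form A) and 34 (TRAV9-1 form A). Over TRAV9-1 and TRAV9D-1 together the range held 41.4%, 41.3%, 43.3% and 44.2% of clonotypes. Over TRAV9-2, TRAV9N-3, TRAV9-4 and TRAV9N-4 it held 22.2%, 27.9%, 21.6% and 20.6%. The 2 sets of values did not overlap in any library. The split was chosen after the values were seen and has no test.

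**Figure D2:**
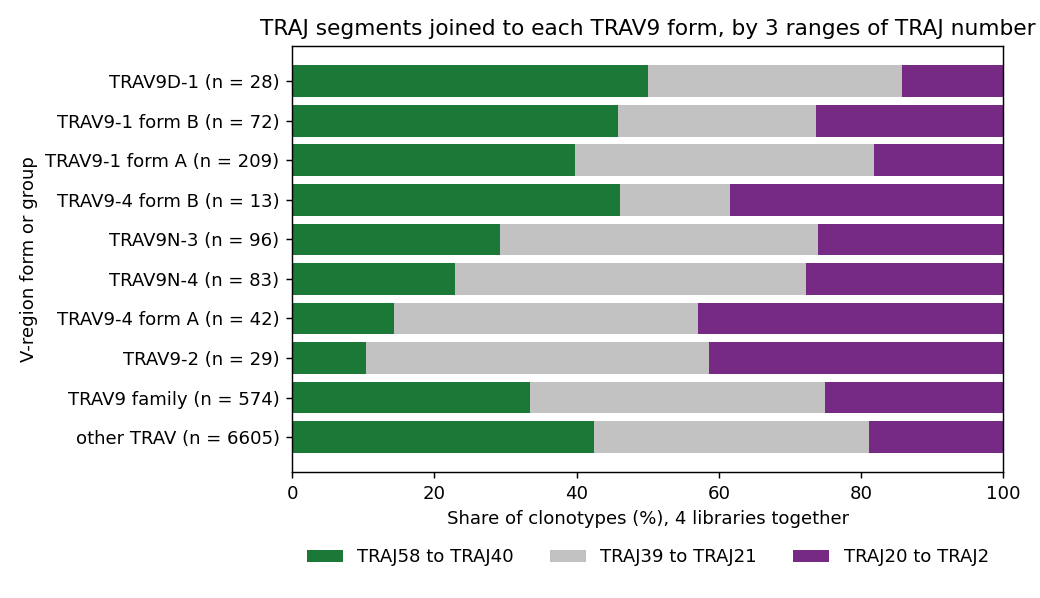
Share of clonotypes (%, x axis, 4 libraries together) in 3 ranges of TRAJ number for each V-region form, for the whole TRAV9 family and for all other TRAV (y axis, n is the number of clonotypes). The green part, TRAJ58 to TRAJ40, is largest for TRAV9D-1 (50.0%) and smallest for TRAV9-2 (10.3%), and is 42.4% for other TRAV. It is 39.7% for TRAV9-1 form A and rises to 46.2% for TRAV9-4 form B (n = 13), placed after it.

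No single partner segment passed the test of TRAV9 against other TRAV clonotypes. Within-library counts of 57 TRAJ, TRBV and TRBJ segments were compared by edgeR's quasi-likelihood test with the library as a term, and 0 were called in either direction (0% higher, 0% lower, lowest adjusted p = 0.282). DESeq2 called 0 as well, and 8 segments had an unadjusted p under 0.05 in edgeR. The smallest was that of TRBJ2-3, used by 14.4%, 16.8%, 16.4% and 14.0% of TRAV9 clonotypes against 10.5%, 10.3%, 11.9% and 11.4% of others, higher in 4 of 4 libraries (log2 fold change 0.50 ± 0.17 SE, edgeR unadjusted p = 0.00702). TRAJ13 was used by 5.40%, 2.10%, 1.49% and 6.98% of TRAV9 clonotypes against 2.08%, 2.19%, 0.962% and 1.54% of others, higher in 3 of 4 (1.19 ± 0.45). The other 6, named after their values were seen, were TRBJ2-2 (0.59), TRAJ40 (-0.83), TRAJ57 (-1.09), TRAJ18 (-0.85), TRBJ2-5 (-0.45) and TRAJ42 (-0.92). TRAJ4, also named after its values were seen, fell under the filter on low counts and was not among the 57. It was used by 0.360%, 2.80%, 1.49% and 5.81% of TRAV9 clonotypes (11 in all) against 0.513%, 0.387%, 0.481% and 0.221% of others. With no filter its log2 fold change was 2.16 ± 0.77 (SE, edgeR adjusted p = 0.153).

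The TRAJ segments with the most TRAV9 clonotypes were TRAJ23 (27), TRAJ13 (25), TRAJ32 (24), TRAJ49 (24) and TRAJ34 (23), so no single TRAJ held over 4.70% of the family. TRAV9-1 most often joined TRAJ49 (19 clonotypes) and TRAJ34 (18), TRAV9N-3 TRAJ15 and TRAJ32 (7 each), TRAV9N-4 TRAJ21 (9) and TRAJ37 (7, as many as TRAJ4), and TRAV9-4 TRAJ12 and TRAJ13 (5 each, as TRAJ23). On the beta side the family used all 22 TRBV names seen. TRBV12-2+TRBV13-2, a joined name kept as deposited, came first with 66 clonotypes (11.5% against 11.5% in other TRAV), then TRBV13-1 with 63 (10.98% against 8.43%), TRBV5 with 53 (9.23% against 10.5%) and TRBV16 with 49 (8.54% against 6.72%). The log2 fold changes of these 4 were 0.03 ± 0.19, 0.43 ± 0.20, -0.24 ± 0.22 and 0.35 ± 0.21 (SE). Without NOD 1 the value was -0.89 for TRBV5 and 0.74 for TRBV13-1, without NOD 2 it was -0.03 for TRBV5, and without Tet2KO NOD 1 it was 0.27 for TRBV13-1. TRBJ2-7 (100 clonotypes), TRBJ2-3 (87) and TRBJ1-1 (62) led the TRBJ segments.

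**Figure D3:**
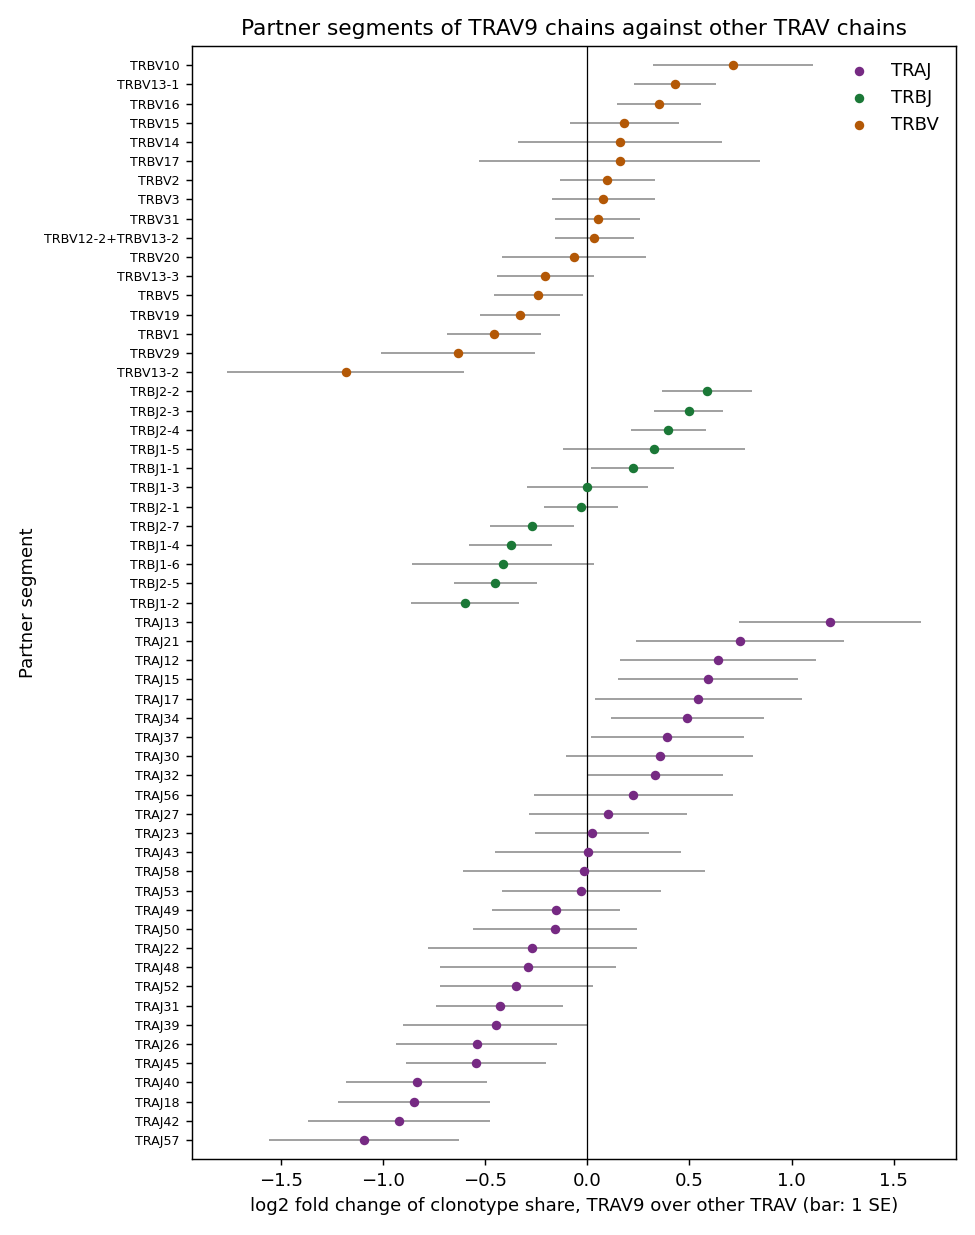
log2 fold change of the share of clonotypes with each partner segment, TRAV9 over other TRAV (x axis, bars 1 SE), for the 57 segments tested (y axis), coloured by kind. TRAJ13 (1.19) and TRBV13-2 (-1.18) lie at the ends and 0 segments were called.

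Beyond single segments, some pairs of a TRAV9 form and a TRAJ recurred with 1 TRBV across libraries. Among the 32 pairs of a form and a TRAJ with at least 5 clonotypes, 5 (15.6%) had more of their clonotypes in 1 TRBV than in all others together. Counted by name in place of form this was 6 of 39 (15.4%) in TRAV9 and 26 of 469 (5.54%) in other TRAV. Of these pairs, 4 had at least 5 clonotypes with 1 TRBV. They were chosen for this, so their counts are a description with no test. No library pair shared a barcode among their cells. The remaining pair, TRAV9-1 form B with TRAJ53, had 3 of 5 clonotypes with TRBV3. Clonotypes were counted per library, and in this pair some were the same receptor found in over 1 library.

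All 7 clonotypes of TRAV9N-4 with TRAJ37 used TRBV16, in all 4 libraries and 19 cells. TRBV16 was used by 6 of 76 clonotypes of TRAV9N-4 with any other TRAJ, by 3 of 16 of other TRAV9 forms with TRAJ37 and by 38 of 203 (18.7%) of other TRAV with TRAJ37. Their alpha CDR3 sequences, all of 45 bases, are shown with the bases that vary among them in capitals.
NOD 1: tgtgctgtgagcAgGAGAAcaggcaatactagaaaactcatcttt
NOD 1: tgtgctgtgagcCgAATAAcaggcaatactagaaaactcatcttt
NOD 1, Tet2KO NOD 1 and Tet2KO NOD 2: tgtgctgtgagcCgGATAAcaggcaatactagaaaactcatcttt
NOD 2: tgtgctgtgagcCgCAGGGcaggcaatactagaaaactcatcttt
Tet2KO NOD 2: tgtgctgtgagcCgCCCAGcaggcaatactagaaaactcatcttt
The sequence of 3 libraries was found in 3 libraries with 3 different beta chains, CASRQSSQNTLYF, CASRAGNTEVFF and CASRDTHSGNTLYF, in 1, 1 and 5 cells. The varying bases lay together at the V to J join, and the beta chains used 5 different TRBJ segments and lengths of 36 to 48 bases.

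TRAV9N-4 with TRAJ21 had 9 clonotypes, and 5 of them used TRBV5, from all 4 libraries and with TRBJ2-3 each time. TRBV5 was used by 3 of 74 clonotypes of TRAV9N-4 with other TRAJ by 1 of 8 of other TRAV9 forms with TRAJ21 and by 14 of 114 (12.3%) of other TRAV with TRAJ21. The alpha sequences, of 42 bases, varied at 3 positions, in capitals.
NOD 1, Tet2KO NOD 1 and Tet2KO NOD 2: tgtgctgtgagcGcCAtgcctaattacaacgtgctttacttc
NOD 1: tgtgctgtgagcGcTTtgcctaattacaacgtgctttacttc
NOD 2: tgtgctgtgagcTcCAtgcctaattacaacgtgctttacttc
The first of these reads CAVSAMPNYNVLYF. Its partner beta chains in 3 libraries and those of the other 2 clonotypes all had 45 bases, shown with the varying bases in capitals.
NOD 1: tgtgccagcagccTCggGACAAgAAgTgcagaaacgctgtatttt
NOD 1: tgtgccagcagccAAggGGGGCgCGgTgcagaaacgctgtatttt
NOD 2: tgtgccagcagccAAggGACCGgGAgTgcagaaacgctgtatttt
Tet2KO NOD 1: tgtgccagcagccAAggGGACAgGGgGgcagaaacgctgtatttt
Tet2KO NOD 2: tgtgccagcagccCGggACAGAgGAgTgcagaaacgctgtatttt

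TRAV9-1 form A with TRAJ30 had 8 clonotypes, and 5 used TRBV13-1, all 5 with TRBJ1-3 and an alpha CDR3 of 36 bases. They came from NOD 2 (3 clonotypes), Tet2KO NOD 1 and Tet2KO NOD 2, while the 3 clonotypes of NOD 1 used other TRBV segments and longer alpha loops. TRBV13-1 was used by 17 of 201 form A clonotypes with other TRAJ by 3 of 9 of other TRAV9 forms with TRAJ30 and by 8 of 154 (5.19%) of other TRAV with TRAJ30. Their 4 distinct alpha sequences are shown with the varying bases in capitals.
NOD 2 and Tet2KO NOD 2: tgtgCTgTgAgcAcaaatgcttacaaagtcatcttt
NOD 2: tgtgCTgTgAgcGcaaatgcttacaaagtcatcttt
NOD 2: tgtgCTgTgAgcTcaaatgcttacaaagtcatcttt
Tet2KO NOD 1: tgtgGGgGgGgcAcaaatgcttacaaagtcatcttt
The first reads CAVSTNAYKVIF and was found in 2 libraries, the other NOD 2 sequences differ from it at 1 base each, and that of Tet2KO NOD 1 differs from it in the V-encoded bases and lacks the CAVS start. The beta sequences, of 42 bases each, are shown with the varying bases in capitals.
NOD 2: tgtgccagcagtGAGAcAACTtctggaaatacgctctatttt
NOD 2: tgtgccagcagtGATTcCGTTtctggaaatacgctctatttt
NOD 2: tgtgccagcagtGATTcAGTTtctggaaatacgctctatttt
Tet2KO NOD 1: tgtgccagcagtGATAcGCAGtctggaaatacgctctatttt
Tet2KO NOD 2: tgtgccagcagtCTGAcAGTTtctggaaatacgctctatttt
Those with GATT in capitals differ at 1 base and read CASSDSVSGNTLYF in both, with different alpha chains in the same library. The others read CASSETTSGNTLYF, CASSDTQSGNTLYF and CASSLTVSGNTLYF.

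TRAV9N-3 with TRAJ32 had 7 clonotypes, and 5 used TRBV15, from NOD 1, NOD 2 and Tet2KO NOD 1. TRBV15 was used by 7 of 89 clonotypes of TRAV9N-3 with other TRAJ by 1 of 17 of other TRAV9 forms with TRAJ32 and by 12 of 220 (5.45%) of other TRAV with TRAJ32. These 5 clonotypes held 28 cells, 21 of them in 1 clonotype of Tet2KO NOD 1. Their alpha CDR3 sequences varied at 5 of 45 positions, in capitals.
NOD 1: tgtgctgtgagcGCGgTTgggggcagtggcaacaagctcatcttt
NOD 2: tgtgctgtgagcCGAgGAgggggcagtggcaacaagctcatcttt
NOD 2: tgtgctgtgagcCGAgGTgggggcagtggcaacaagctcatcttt
NOD 2: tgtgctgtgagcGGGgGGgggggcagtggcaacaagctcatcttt
Tet2KO NOD 1: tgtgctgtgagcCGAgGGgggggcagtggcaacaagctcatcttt
The sequences with CGA in capitals encode the same loop by different bases, and come from NOD 2 (both clonotypes) and from Tet2KO NOD 1.

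**Figure D4:**
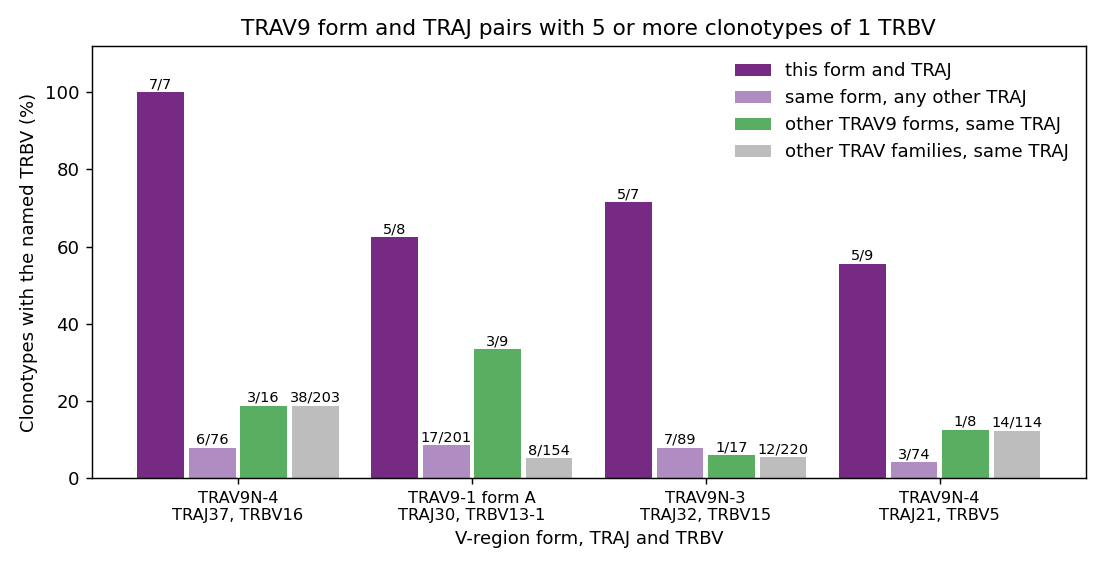
Share of clonotypes with the named TRBV (%, y axis) for the 4 pairs of a V-region form and a TRAJ that had at least 5 clonotypes with 1 TRBV (x axis), beside the same form with other TRAJ, other TRAV9 forms with the same TRAJ and other TRAV with the same TRAJ, with fractions of clonotypes. The pairs were chosen for their first bar, and the highest of the other bars is that of other TRAV9 forms with TRAJ30 (3 of 9 clonotypes).

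Averaged over the family, the alpha CDR3 of TRAV9 clonotypes was slightly longer than that of others. The mean length was 13.8, 13.8, 14.0 and 13.8 residues, against 13.6, 13.7, 13.6 and 13.6 in other TRAV, longer in 4 of 4 libraries by 0.214 ± 0.106 residues (SD, n = 4, exact permutation p = 0.125, adjusted 0.250). With other TRAV weighted to the TRAJ use of TRAV9 the difference was 0.272. By name the mean ran from 13.6 residues in TRAV9D-1 to 14.2 in TRAV9N-4. It was 13.7 in TRAV9-1 and in TRAV9-4, 13.9 in TRAV9-2 and 14.0 in TRAV9N-3. Within TRAV9-4 it was 13.5 for form A (42 clonotypes) and 14.2 for form B (13 clonotypes). TRAV9-1 and TRAV9D-1 together had 13.7, 13.7, 13.7 and 13.5 residues, and the other 4 names 13.9, 14.0, 14.3 and 14.1, in the same order of libraries.

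Clone sizes of TRAV9 receptors differed among libraries in no common direction. A share of 13.7%, 18.9%, 22.4% and 10.5% of TRAV9 clonotypes had at least 2 cells (38 of 278, 27 of 143, 15 of 67 and 9 of 86), against 13.5%, 12.6%, 18.6% and 15.2% of other clonotypes. TRAV9 was higher in 3 of 4 libraries (1.36 ± 4.77 percentage points, SD, n = 4, exact permutation p = 0.625, adjusted 0.833). Such clonotypes held 41.7%, 49.8%, 64.6% and 26.0% of TRAV9 cells against 44.3%, 39.7%, 53.5% and 40.3% of others, higher in 2 of 4 (1.08 ± 12.0, exact permutation p = 1, adjusted 1). By name, the share with at least 2 cells was 12.5% for TRAV9-1 (35 of 281, Wilson 95% interval 9.09% to 16.8%), 12.5% for TRAV9-4 (7 of 56), 14.3% for TRAV9D-1 (4 of 28), 16.5% for TRAV9N-3 (16 of 97), 21.4% for TRAV9N-4 (18 of 84, 14.0% to 31.3%) and 32.1% for TRAV9-2 (9 of 28, 17.9% to 50.7%). The 9 TRAV9-2 clonotypes had at most 3 cells each and came from all 4 libraries. The intervals of TRAV9-2 and TRAV9-1 did not overlap; clonotypes of a library are not replicates, and this was not tested.

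**Figure D5:**
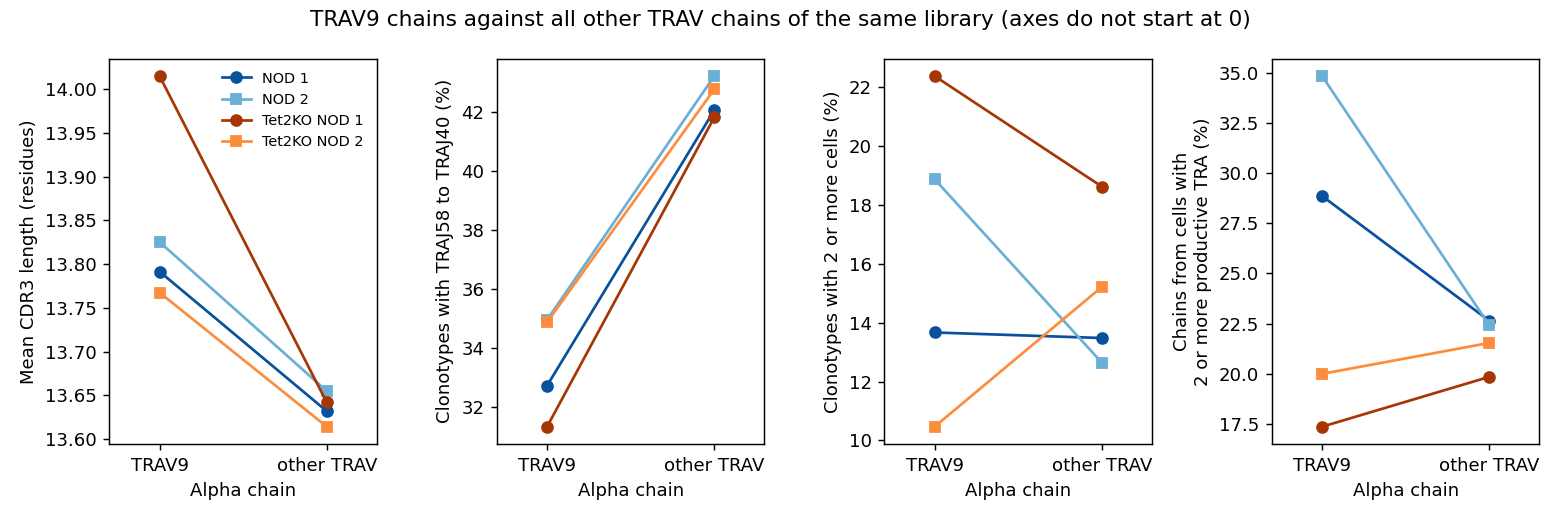
Values of TRAV9 and of all other TRAV chains (x axis) joined by library, for the mean CDR3 length in residues, the share of clonotypes with TRAJ58 to TRAJ40, the share with at least 2 cells and the share of chains from cells with at least 2 productive TRA (y axes, none starting at 0). The first 2 panels run the same way in all 4 libraries, and the last runs down in both NOD and up in both Tet2KO NOD libraries.

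Of the 2 largest TRAV9 clonotypes of each library, most were TRAV9-1, a name that also held 281 of the 574 TRAV9 clonotypes. In Tet2KO NOD 1 a TRAV9-1 form A chain with TRAJ53, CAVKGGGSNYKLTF, paired with TRBV3 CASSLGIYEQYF in 32 cells, 2.00% of that library's paired cells, 21.8% of its TRAV9 cells and the second largest clonotype of the library. Next came the TRAV9N-3 and TRAJ32 clonotype described above, with TRBV15 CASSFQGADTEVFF in 21 cells. In NOD 2 the largest was TRAV9-1 form A with TRAJ49, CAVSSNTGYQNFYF, and TRBV16 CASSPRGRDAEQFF in 21 cells, followed by TRAV9-1 form A with TRAJ40 and TRBV15 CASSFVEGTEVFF in 10. The TRAJ49 chain was in 44 cells with this TRBV16 chain, 42 of which also held another TRA, as described below. Each cell was counted with its TRA of most UMIs. In NOD 1 they were TRAV9-1 form A with TRAJ56 (20 cells) and TRAV9-1 form B with TRAJ53 (18 cells), which shared 1 TRBV19 beta chain. These were parts of 1 clone, described below. In Tet2KO NOD 2 both had 5 cells, TRAV9-1 form B with TRAJ13, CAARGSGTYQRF, and TRBV1, and TRAV9N-4 with TRAJ37 and TRBV16 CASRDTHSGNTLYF.

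Most TRAV9 alpha chains were private to a library. Of 549 distinct chains (V, J and CDR3 nucleotides), 534 were found in 1 library, 12 in 2, 3 in 3 and 0 in 4. The share of a library's distinct TRAV9 chains found elsewhere was 4.43%, 4.90%, 5.97% and 11.6%, against 4.79%, 6.88%, 7.31% and 8.72% of other TRAV (higher in 1 of 4, exact permutation p = 0.875, adjusted 1). The 3 chains of 3 libraries were those of TRAV9N-4 with TRAJ21 and with TRAJ37 shown above, and a TRAV9-1 form B chain with TRAJ53, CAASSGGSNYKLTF.
TRAV9-1 form B, TRAJ53: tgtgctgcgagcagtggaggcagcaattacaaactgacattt
It was in 5 cells of NOD 1 and 7 of NOD 2 with the same TRBV3 chain, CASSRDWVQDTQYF, and in 1 cell of Tet2KO NOD 2 with another TRBV3 chain. Next by the number of libraries and clonotypes were TRAV9-1 with TRAJ34, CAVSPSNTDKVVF, in NOD 1 and Tet2KO NOD 1 (3 cells, TRBV19 in both libraries and TRBV3), and the TRAV9-1 form B chain of the TRBV19 clone of NOD 1, which was also in 1 cell of Tet2KO NOD 1. That cell carried the same TRBV19 beta chain as the NOD 1 clone. Of 13 TRAV9 chains found in different libraries with different beta chains, 7 (53.8%, Wilson 95% interval 29.1% to 76.8%) met the same TRBV again, against 66 of 160 (41.3%, 33.9% to 49.0%) of other TRAV chains. Only 3 of 571 distinct TRAV9 clonotypes were found with both chains in over 1 library.

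TRAV9 chains came from cells with at least 2 productive TRA at a higher share than other chains in both NOD libraries and at a lower share in both Tet2KO NOD libraries, and in each NOD library 1 expanded clone held many of them. The share was 28.9% and 34.8% of TRAV9 chains in NOD 1 and NOD 2 against 22.6% and 22.4% of others, and 17.4% (29 of 167) and 20% (25 of 125) in Tet2KO NOD 1 and Tet2KO NOD 2 against 19.9% and 21.5% (exact permutation p over 4 libraries = 0.5, adjusted 0.8). In NOD 1, 38 cells shared TRBV19 with TRBJ2-5, and 34 of them carried 2 productive TRAV9-1 chains, form A with TRAJ56, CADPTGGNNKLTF, and form B with TRAJ53. Of the other 4 cells, 3 showed only the TRAJ56 chain and 1 only the TRAJ53 chain, and each chain had a median of 9 UMIs per cell. Choice of the TRA with most UMIs split this clone into clonotypes of 20 and 18 cells, and it gave 68 of the 157 TRAV9 chains from such cells of NOD 1. Without it the NOD 1 share was 18.9%, below that of other TRAV. In NOD 2, the TRAV9-1 and TRAJ49 chain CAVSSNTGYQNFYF was in 44 cells, 42 of which also held a TRAV16N chain with TRAJ42, an alpha V and J combination known from IGRP-reactive CD8 T cells of NOD mice. Both chains had a median of 5 UMIs, and all 44 cells had the TRBV16 chain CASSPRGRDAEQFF. It gave 42 of the 108 TRAV9 chains from such cells of NOD 2. With each distinct chain of a library counted once, the shares were 20.4%, 25.3%, 27.5% and 19.8% for TRAV9, against 23.9%, 25.4%, 22.6% and 23.8%, and the mean difference turned to -0.677 percentage points. Here a chain counted if any of its cells had at least 2 productive TRA, so a chain of many cells could count more easily. In all, 48 cells carried 2 TRAV9 chains, 34 of them in that NOD 1 clone.

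Nonproductive joins held fewer TRAV9 chains than productive ones. Of high-confidence, nonproductive TRA contigs with a named V and J in called cells, 4.99%, 4.99%, 3.69% and 4.49% were TRAV9 (95 of 1902, 47 of 942, 21 of 569 and 22 of 490). The matching productive shares were 7.87%, 10.3%, 8.77% and 7.48%, higher in every library. Productive chains had to be full-length and nonproductive ones did not, so the classes were not selected alike, and this was not tested. Over all libraries together, TRAV9N-3 made up 31.4% of the 185 nonproductive contigs and 16.1% of the productive TRAV9 chains, while TRAV9-1 made up 34.6% and 53.7%. By library, TRAV9N-3 gave 36 of 95, 7 of 47, 5 of 21 and 10 of 22 nonproductive contigs. Its productive chains were 67 of 544, 51 of 310, 44 of 167 and 22 of 125. Its nonproductive share was thus higher in NOD 1 and Tet2KO NOD 2 only. Contigs and chains were counted here, not clonotypes. TRAV9 chains had a median of 5, 5, 4 and 5 UMIs against 6, 6, 5 and 6 for other TRAV, lower in 4 of 4 libraries (exact permutation p = 0.125, adjusted 0.250). By name the median was 6 for TRAV9-1, 5 for TRAV9N-4, 4 for TRAV9N-3, TRAV9-4 and TRAV9D-1, and 3 for TRAV9-2.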

How the data were processed

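Receptor contigs of single cells from 4 pools of islets were analysed. Per contig the authors deposited counts of reads and of UMIs as whole numbers, the contig length in bases, V and J names, CDR3 and flags, per the file headers. The authors' contigs, names and cell calls came from Cell Ranger 7.0.1, with the build GRCm38 (mm10), per the submitters' processing notes. The segment reference behind the names is not given in the sources here, so copies with near-identical sequences are uncertain. The members and lists were chosen with earlier results of these data known. Cells with over 1 TRB were left out of clonotypes, and no doublet caller was run. Clonotype counts were tested with edgeR 4.0.16 (R 4.3.3), library size as the number of clonotypes, segments with at least 10 clonotypes in at least 2 libraries (4 columns of library and class for partners), with the script checked on simulated data and with DESeq2 1.42.0 as an alternative. Single values were tested with exact permutations in scipy over libraries. V regions were searched in GRCm38.p6. Each TRAV9 name, the 5 TRAJ, 4 TRBV and 3 TRBJ with most clonotypes, the 2 largest clonotypes of a library and the 5 most shared chains were named by rule.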

Additional observations from a re-analysis of the deposited data

Results flagged for a closer look

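The share of TRAV9 chains from cells with at least 2 productive TRA stood above that of other TRAV chains in both NOD libraries, by 9.32 percentage points on average, and below it in both Tet2KO NOD libraries, by -2.01 percentage points on average. It is listed because the genotypes ran in opposite directions. The difference between the genotypes was not tested. Without the NOD 1 clone with 2 TRAV9-1 chains the difference in NOD 1 was -3.79 percentage points. In NOD 2, the TRAV9-1 and TRAJ49 chain of 1 clone gave 42 of the 108 TRAV9 chains from such cells. Each distinct chain of a library was also counted once, by whether any of its cells had at least 2 productive TRA. The differences were then -3.49, -0.130, 4.88 and -3.97 percentage points. Counted that way, both NOD libraries and Tet2KO NOD 2 stood below other TRAV, so the genotypes did not run in opposite directions.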

How the results depend on the processing

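Each pool is 1 library, 2 libraries a genotype limit every test, and V names depend on a segment set not seen here. The single call between genotypes, TRBV2, fell to 0 calls with DESeq2, with no filter, with each cell counted once and with cells of over 1 TRB kept. It was also lost with every TRA chain counted, without clonotypes found in over 1 library (added after seeing the data) and with a replicate block by set number. Leaving out 1 library at a time gave 0 to 1 calls, with 1 only without NOD 2, and TMM factors kept 1. For the family's share differences, -0.0342 (clonotypes) and -0.0511 (cells), the block could not change the value. Each set held 1 library per genotype, so the mean within-set difference equals the main difference by construction. In the 13 fits of each kind no partner segment and no TRAV9 name was called, with a lowest adjusted p from 0.153 to 0.552 for partners (edgeR or DESeq2).

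Of 295 alternative values, 28 changed sign, all of results with no call. The family's share of clonotypes differed by 0.0188 without clonotypes of over 1 library and by -0.638 to 0.570 when leaving out 1 library. Its share of cells differed by 0.127 without such clonotypes, by 0.267 without the 2-chain clone of NOD 1, and by -1.02 to 0.913 when leaving out 1 library. The excess of clonotypes with at least 2 cells ranged from -0.268 to 3.39, that of cells in them from -2.26 to 6.22 (-0.401 without the 2-chain clone), and that of shared chains from -1.23 to 0.403. The share of chains from cells with 2 TRA turned to -0.677 with each distinct chain counted once. Among log2 fold changes of single segments, TRAV9-1 turned to -0.0121 with every TRA chain counted, TRAJ23 to -0.223 with each cell counted once and -0.0136 with every TRA chain, and TRBV12-2+TRBV13-2 to -0.0124 with cells of over 1 TRB kept and -0.0661 with every TRA chain. Leaving out 1 library gave ranges of -0.3675 to 0.3478 for TRAV9-1, -0.5563 to 0.2816 for TRAV9N-4, -0.1239 to 0.1943 for TRAJ23, -0.7686 to 0.3893 for TRAJ49, -0.1481 to 0.2863 for TRBV12-2+TRBV13-2 and -0.0637 to 0.4155 for TRBJ1-1. Other values kept their sign but moved by over 1.5 times, among them TRBV5 (-0.8875 to -0.0275) and TRBV13-1 (0.2727 to 0.7415) when leaving out 1 library, TRAJ34 (0.1028 without NOD 1) and TRAV9-4 (-1.191 with each cell counted once). The cause was not tested. CDR3 length kept its direction in all alternatives run. The TRAJ ranges were recomputed only with 1 library left out. UMIs were recomputed that way and without the 2-chain clone of NOD 1, where the direction was kept. For each of these measures all 4 libraries ran the same way, so leaving 1 out could not change the sign.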
